A study of Mus musculus with 8 samples.

Results

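This account follows 10 genes of the neuregulin and ERBB system in mouse sciatic nerve, picked by symbol with no expression filter from the 23356 genes of the deposited table: the receptors Erbb2, Erbb3, Erbb4 and Egfr, the ligands Nrg1, Btc and Hbegf, and the proteases Adam17, Adam10 and Bace1. Nerves came from mice aged 30 days, F1 animals of C57BL/6 and FVB/N. There were 4 genotypes with 2 libraries each. HA-NRG1 type III/+ mice carried HA-tagged neuregulin 1 of type III as a transgene. HA-NRG1 type III/+:Q215X/+ mice, called transgenic mutant here, carried that transgene and 1 copy of the Q215X mutation of P0, the main protein of peripheral myelin. Q215X/+ mice carried the mutation alone, and wild-type (WT) mice carried neither. The sources used here do not give the promoter that drives the transgene, the number of founder lines or any pooling of animals. No label says whether both libraries of a genotype came from different animals. By sex-linked genes 1 library of HA-NRG1 type III/+ read as male and 1 as female, so these 2 came from different animals. For the other genotypes this is not settled, and p-values therefore reflect library spread that may be technical.

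Neuregulin 1 is an EGF-like growth factor. Its type III form stays in the axon membrane and signals to Schwann cells, where it sets the amount of myelin. ERBB3 binds neuregulin but has little or no kinase activity of its own, ERBB2 has no known ligand and supplies the kinase, and this pair is the main neuregulin receptor of Schwann cells. ERBB4 binds neuregulins and also betacellulin and HB-EGF, and is an active kinase. BACE1 cuts neuregulin 1 type III in a way that promotes myelination, whereas ADAM17 cuts it in a way that limits myelination, and ADAM10 is a related sheddase of EGF-like ligands. Btc encodes betacellulin and Hbegf encodes HB-EGF, which both bind EGFR and ERBB4.

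The deposited values are FPKM, fragment numbers per unit of gene length and of library size. Each genotype had 1 column ending in 0 and 1 ending in 1, called set 0 and set 1 here, and values are listed in that order. Differences are given as log2 differences of FPKM + 1. Tests with limma covered the 12530 genes whose mean reached 1 FPKM, and a gene was called when its Benjamini-Hochberg adjusted p was under 0.05. Of the 10 genes, 8 were tested. Nrg1 and Btc lay under that level and got a test only in a fit without the filter.

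In both transgenic genotypes Erbb4 was higher and Erbb3 was lower than in the matching genotype without the transgene. The lowest Erbb4 value of the 4 transgenic libraries was 5.04 FPKM, against a highest value of 4.16 FPKM in the 4 other libraries. For Erbb3 the highest transgenic value was 33.7 FPKM and the lowest other value was 36.0 FPKM. Btc, Adam17 and Hbegf were also higher in all 4 transgenic libraries than in the 4 others. These 5 genes of 10 are set against 6.87% of all genes of the table, and 10.1% of genes past the filter, whose 4 transgenic libraries did not overlap the 4 others. The 10 genes were chosen with earlier results of these data known, so setting them beside these shares is no test of the group. In the limma fit without a term for the set, 0 of the 8 tested genes were called for the transgene over both backgrounds, where 0.99% of all tested genes were called. The 8 genes were also not called in any of the 3 single transgene comparisons, which called 0.0638% of tested genes for HA-NRG1 type III/+ against WT, 0.0399% for transgenic mutant against Q215X/+ and 0.112% for transgenic mutant against WT. Over both backgrounds 4 of the 8 genes had an unadjusted p under 0.05, against 11.2% of all tested genes. With the set as a replicate block Erbb4 and Adam17 rose and Erbb3 fell, where 7.1% of all tested genes were called.

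**Figure D1:**
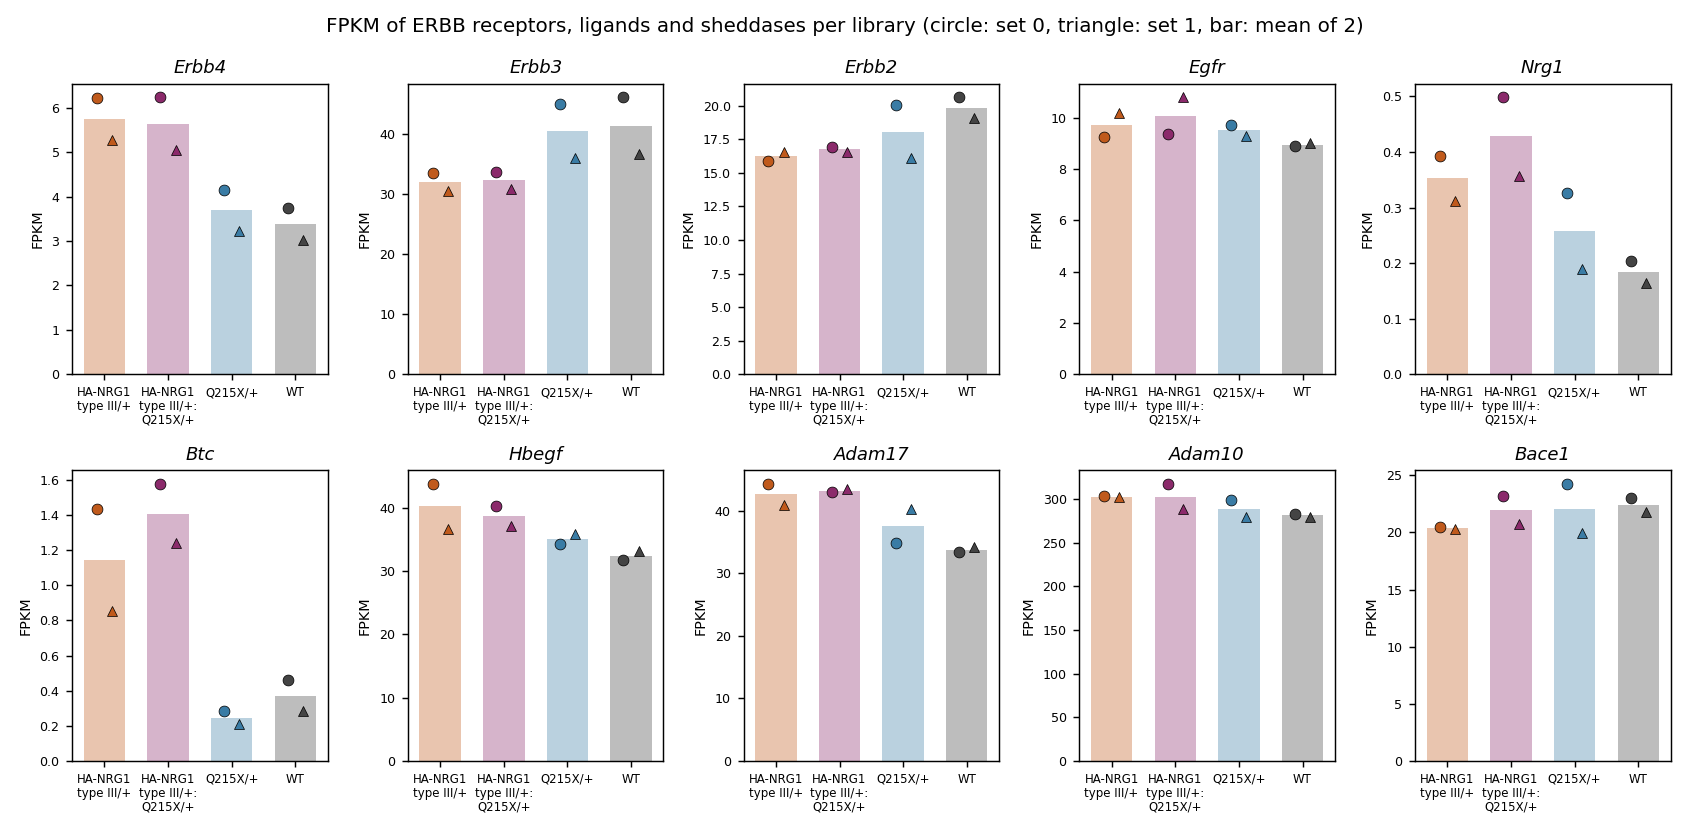
FPKM of the 10 genes (y axes, each from 0) in the 4 genotypes (x axes), with circles for set 0, triangles for set 1 and bars for the mean of 2 libraries. Erbb4 ran from 5.04 to 6.23 FPKM with the transgene and from 3.02 to 4.16 FPKM without it, and Btc from 0.856 to 1.57 and from 0.208 to 0.459 FPKM.

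The 4 receptor genes are separate loci with a shared kinase fold. To show how alike their transcripts are, the 42 bases that encode the catalytic loop of the kinase are given here from GENCODE transcripts on GRCm38, all in exon 21 of the transcript used, with capitals at each base that differs from Erbb4.
Erbb4: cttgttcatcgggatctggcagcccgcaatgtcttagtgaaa
Erbb3: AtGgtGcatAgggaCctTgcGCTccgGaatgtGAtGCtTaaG
Erbb2: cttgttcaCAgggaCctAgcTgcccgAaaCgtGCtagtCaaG
Egfr: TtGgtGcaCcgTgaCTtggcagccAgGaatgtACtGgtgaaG
They lie at chr1:68080727-68080768 on the minus strand for Erbb4, chr10:128572521-128572562 on the minus strand for Erbb3, chr11:98434241-98434282 on the plus strand for Erbb2 and chr11:16904332-16904373 on the plus strand for Egfr. Of the 42 bases, Erbb2 shared 31 with Erbb4, Egfr shared 29 and Erbb3 shared 26. Over the whole transcript, the longest exact stretch shared with Erbb4 was 22 bases for Erbb2, 20 bases for Egfr and 17 bases for Erbb3.

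Erbb4, on chromosome 1 from 68032186 to 69108059 (GRCm38, minus strand), stood at 6.22 and 5.27 FPKM in HA-NRG1 type III/+ nerve, against 3.74 and 3.02 FPKM in WT nerve. It stood at 6.23 and 5.04 FPKM in transgenic mutant nerve, against 4.16 and 3.23 FPKM in Q215X/+ nerve. Neither background showed overlap, which held for 24.3% of all genes of the table between HA-NRG1 type III/+ and WT and for 24% between transgenic mutant and Q215X/+, and set 0 was above set 1 in all 4 genotypes. The mean was 1.70 times the WT mean in HA-NRG1 type III/+ nerve and 1.53 times the Q215X/+ mean in transgenic mutant nerve.

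Within sets the Erbb4 differences lay close together. HA-NRG1 type III/+ minus WT was 0.61 in set 0 and 0.64 in set 1, and transgenic mutant minus Q215X/+ was 0.49 and 0.51. Over both backgrounds the log2 difference was 0.56 (SE 0.11, limma adjusted p = 0.0909), and with the set as a block the SE was 0.0446 and the adjusted p was 0.0036. With the block Erbb4 was also called in HA-NRG1 type III/+ against WT (log2 difference 0.62, limma adjusted p = 0.0172 with the block and 0.339 without), in a comparison that called 2.11% of tested genes with the block. It was likewise called in transgenic mutant against Q215X/+ (0.50, limma adjusted p = 0.0276 with the block and 0.538 without), where 1.72% of tested genes were called with the block. Transgenic mutant nerve against WT gave 0.60, with a limma adjusted p of 0.0159 with the block and 0.353 without, beside 2.39% of tested genes called with the block. These comparisons share libraries: WT serves 2 of them and transgenic mutant nerve serves 2.

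Sex, read from the X-linked Xist and the Y-linked Ddx3y, was not balanced over genotypes. The HA-NRG1 type III/+ libraries read as male in set 0 and female in set 1, the transgenic mutant and WT libraries as female, and the Q215X/+ libraries as male. The female-only comparison of transgenic mutant with WT thus holds no difference in sex, and Erbb4 was 5.04 to 6.23 FPKM in the transgenic mutant libraries, against 3.02 to 3.74 FPKM in the WT ones. Those groups differ in the mutation as well as in the transgene. For every gene here, transgenic mutant against Q215X/+ sets female against male libraries. Only HA-NRG1 type III/+ nerve held both sexes, so a term for sex rests on its 1 male and 1 female library. These 2 libraries also differ in set. The fit with terms for sex and set leaves 2 residual degrees of freedom. In that fit Erbb4 remained called over both backgrounds (0.55, limma adjusted p = 0.0269, beside 2.43% of tested genes called). It also remained called in transgenic mutant against WT (limma adjusted p = 0.0408, beside 0.782%). The other 2 transgene comparisons of Erbb4 were not called in that fit, at limma adjusted p = 0.129 for HA-NRG1 type III/+ against WT and 0.731 for transgenic mutant against Q215X/+, each with 0.0878% of tested genes called. With a term for sex and no block, Erbb4 was not called over both backgrounds (0.61, limma adjusted p = 0.213). In 8 further fits with the block, chosen after seeing the data, 1 library each was left out. Erbb4 had log2 differences of 0.55 to 0.58 over both backgrounds in these fits. In the same 8 fits it was called in 2 for HA-NRG1 type III/+ against WT, in 4 for transgenic mutant against WT and in 0 for transgenic mutant against Q215X/+. The 2 calls were those without a Q215X/+ library, and the 4 were those without a Q215X/+ or an HA-NRG1 type III/+ library, so leaving out any WT or transgenic mutant library ended both calls.

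Erbb3, on chromosome 10 from 128567523 to 128589652 (minus strand), stood at 33.5 and 30.4 FPKM in HA-NRG1 type III/+ nerve, against 46.0 and 36.7 FPKM in WT nerve. In transgenic mutant nerve it stood at 33.7 and 30.9 FPKM, against 44.9 and 36.0 FPKM in Q215X/+ nerve. Set 0 was again above set 1 in every genotype, and the groups did not overlap on either background. The change of the mean was -22.7% in HA-NRG1 type III/+ against WT nerve and -20.2% in transgenic mutant against Q215X/+ nerve.

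Over both backgrounds the log2 difference of Erbb3 was -0.33 (SE 0.11, limma adjusted p = 0.293), and with the block the SE was 0.0499 and the adjusted p was 0.0159. It was not called with the block on either background alone, at limma adjusted p = 0.069 for HA-NRG1 type III/+ against WT and 0.103 for transgenic mutant against Q215X/+. With terms for sex and set the limma adjusted p over both backgrounds was 0.0532. Of the 8 fits with the block that left out 1 library each, 1 called Erbb3, the one without the Q215X/+ library of set 1, and the limma adjusted p over the 8 ran from 0.0362 to 0.106.

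Because both genes come from the same library, Erbb4 can be set against Erbb3 without a scaling between libraries. Erbb4 was 18.6% and 17.3% of Erbb3 FPKM in HA-NRG1 type III/+ nerve, against 8.12% and 8.23% in WT nerve. It was 18.5% and 16.3% in transgenic mutant nerve, against 9.27% and 8.96% in Q215X/+ nerve. All 4 transgenic libraries were above all 4 others, and within a set the log2 change of this ratio was 1.19 and 1.07 on the WT background and 1.00 and 0.87 on the Q215X/+ background. As a share of the summed FPKM of the 4 receptor genes, Erbb4 held 7.96% to 9.59% in transgenic libraries and 4.46% to 5.28% in the others. The ratio joins 2 genes already described, so it is no separate support for either.

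**Figure D2:**
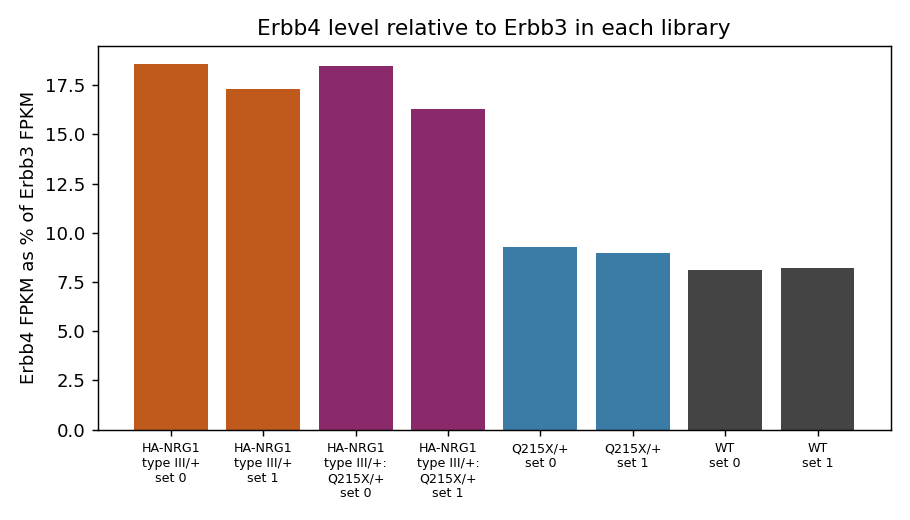
Erbb4 FPKM as a percentage of Erbb3 FPKM (y axis, from 0) in each of the 8 libraries (x axis, by genotype and set). The 4 transgenic libraries lay between 16.3% and 18.6%, above the 4 others at 8.12% to 9.27%.

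Erbb2, on chromosome 11 from 98412470 to 98437716, was at 15.9 and 16.6 FPKM in HA-NRG1 type III/+ nerve, against 20.6 and 19.1 FPKM in WT nerve. With mutation and transgene together, it was at 16.9 and 16.6 FPKM, against 20.0 and 16.1 FPKM in Q215X/+ nerve. The groups did not overlap on the WT background and did overlap on the mutant one. Over both backgrounds the log2 difference was -0.18 (SE 0.0794), and it was not called without the block or with it (limma adjusted p = 0.471 and 0.149). Erbb3 was 1.84 to 2.11 times Erbb2 in transgenic libraries and 1.93 to 2.24 times Erbb2 in the others, with overlap. Erbb2 shares exon bases with Mien1 on the other strand, and the sources used here do not say whether strand was used in counting.

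Egfr, the receptor of EGF and of several ligands below, was at 9.25 and 10.2 FPKM in HA-NRG1 type III/+ nerve, against 8.90 and 9.01 FPKM in WT nerve. With the transgene on the mutant background it was at 9.36 and 10.8 FPKM, against 9.72 and 9.30 FPKM in Q215X/+ nerve. Its log2 difference over both backgrounds was 0.09 (SE 0.0650, limma adjusted p = 0.777), with an interval of -0.07 to 0.25 at the 95% level.

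Among the ligands, Btc had the largest ratios of the 10 genes, at levels near or under 1 FPKM. It was at 1.43 and 0.856 FPKM in HA-NRG1 type III/+ nerve, against 0.459 and 0.283 FPKM in WT nerve. In nerve of transgenic mutants it was at 1.57 and 1.24 FPKM, against 0.285 and 0.208 FPKM in Q215X/+ nerve. No overlap was seen between the groups on either background, and the mean was 3.09 times the WT mean in HA-NRG1 type III/+ nerve and 5.70 times the Q215X/+ mean in transgenic mutant nerve. Transgenic mutant libraries read as female and Q215X/+ libraries as male, so that last ratio also holds a difference in sex. Btc was in no fit with a term for sex.

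Btc was tested only without the filter on low values. Over both backgrounds its log2 difference was 0.79 (SE 0.11), with a limma adjusted p of 0.09 without the block and 0.0456 with it, in a fit that called 0.694% of all 23356 genes with the block. With a pseudocount of 0.1 in place of 1, the same unfiltered fit with the block gave a log2 difference of 1.75 and a limma adjusted p of 0.0363, beside 0.724% of all genes called. With the block and no filter Btc was not called on either background alone, at limma adjusted p = 0.16 for HA-NRG1 type III/+ against WT and 0.11 for transgenic mutant against Q215X/+, where 0.154% and 0.00856% of all genes were called. In that unfiltered fit with the block Erbb4 stayed called over both backgrounds (limma adjusted p = 0.0249), while Erbb3 and Adam17 did not (0.0981 and 0.171). The 3 single comparisons of Erbb4 lost their calls there, at limma adjusted p = 0.0709 for HA-NRG1 type III/+ against WT, 0.101 for transgenic mutant against Q215X/+ and 0.0614 for transgenic mutant against WT, the last beside 0.107% of all genes called. FPKM carries no read counts, so the counting error of a gene as low as Btc is unknown.

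Nrg1, on chromosome 8 from 31814551 to 32884029, had the lowest mean of the 10 genes in every genotype except Q215X/+. Its values were 0.393 and 0.312 FPKM in HA-NRG1 type III/+ nerve, against 0.204 and 0.164 FPKM in WT nerve. In transgenic mutant nerve they were 0.498 and 0.358 FPKM, against 0.326 and 0.190 FPKM in Q215X/+ nerve. The transgenic library was higher within each set and background, while the 4 transgenic libraries and the 4 others overlapped, between 0.312 and 0.326 FPKM. Without the filter the log2 difference over both backgrounds was 0.19 (limma adjusted p = 0.336, and 0.0778 with the block). Nrg1 is the gene the transgene is built on, and the sources used here do not say whether reads of the transgene enter its row, so it is no check of the genotype labels.

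Hbegf was at 43.7 and 36.7 FPKM in HA-NRG1 type III/+ nerve, against 31.7 and 33.1 FPKM in WT nerve. With mutation and transgene together, it was at 40.3 and 37.1 FPKM, against 34.3 and 35.9 FPKM in Q215X/+ nerve. The groups did not overlap, by a margin of less than 1 FPKM between 36.7 and 35.9. The log2 difference over both backgrounds was 0.22 (SE 0.0748) and was not called, with a limma adjusted p of 0.334, and 0.0953 with the block. Hbegf was 25.6 to 42.9 times Btc in transgenic libraries and 69.1 to 172 times Btc in the others.

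Among the proteases, Adam17 on chromosome 12 from 21323509 to 21373632 was at 44.2 and 41.0 FPKM in HA-NRG1 type III/+ nerve, against 33.3 and 34.2 FPKM in WT nerve. With the transgene on the mutant background it was at 42.9 and 43.5 FPKM, against 34.8 and 40.3 FPKM in Q215X/+ nerve. The Q215X/+ library of set 1 came within 1 FPKM of the lowest transgenic library. Over both backgrounds the log2 difference was 0.26 (SE 0.0680, limma adjusted p = 0.182, and 0.0448 with the block). It was not called with the block on either background alone (limma adjusted p = 0.11 and 0.299) nor with terms for sex and set (0.0643). Of the 8 fits with the block that left out 1 library each, 1 called Adam17, the one without the Q215X/+ library of set 1, and the limma adjusted p over the 8 ran from 0.0346 to 0.199. Adam17 shares exon bases with Iah1 on the other strand.

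Adam10, by far the most abundant of the 10 genes, was at 303 and 302 FPKM in HA-NRG1 type III/+ nerve, against 283 and 280 FPKM in WT nerve. In nerve of transgenic mutants it was at 317 and 288 FPKM, against 299 and 279 FPKM in Q215X/+ nerve. The transgenic library was higher within each set and background, by log2 differences of 0.04 to 0.11, and the gene was not called (0.08 over both backgrounds, interval -0.10 to 0.27 at the 95% level, limma adjusted p = 0.858). Bace1 was at 20.5 and 20.3 FPKM in HA-NRG1 type III/+ nerve, against 23.0 and 21.8 FPKM in WT nerve. In transgenic mutant nerve it was at 23.2 and 20.7 FPKM, against 24.2 and 19.9 FPKM in Q215X/+ nerve. Bace1 was lower within each set on the WT background and went either way on the mutant one, with a log2 difference of -0.07 over both (limma adjusted p = 0.933). Bace1 shares exon bases with Rnf214 and 2 predicted genes on the other strand.

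**Figure D3:**
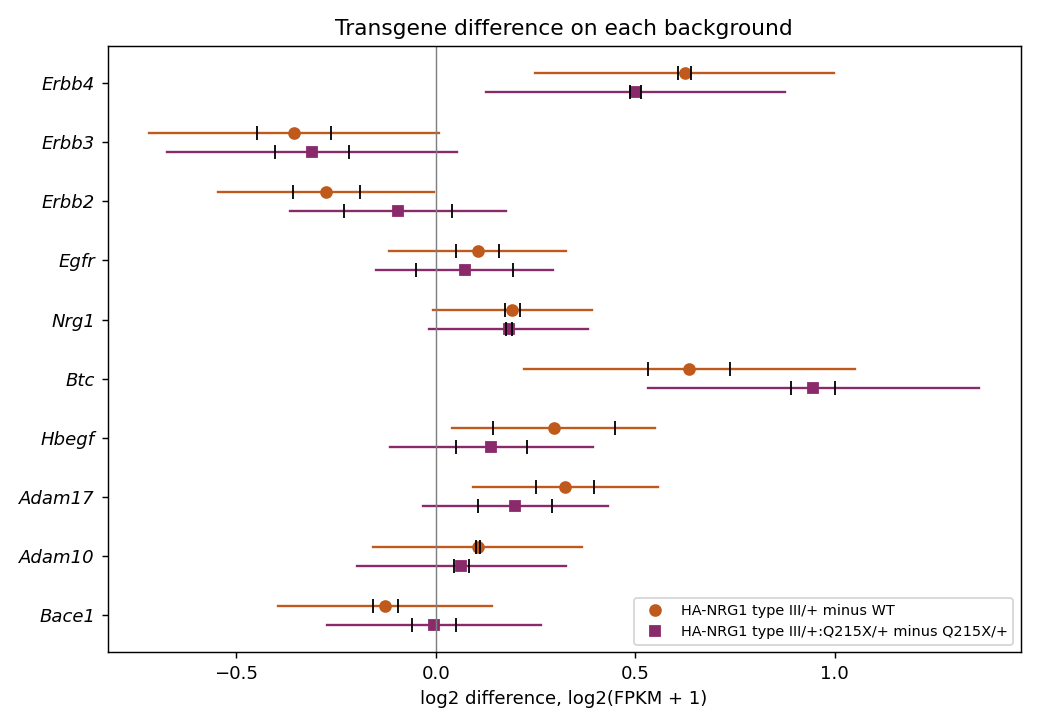
Log2 differences of FPKM + 1 (x axis) for the 10 genes (y axis), with circles for HA-NRG1 type III/+ minus WT and squares for transgenic mutant minus Q215X/+, lines for 95% intervals from limma without the block, and ticks for the value within each set. Nrg1 and Btc come from the fit without a filter. Erbb4 lay at 0.62 and 0.50 with its ticks close together, and Erbb3 at -0.36 and -0.31.

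The transgene differences had the same sign in all 4 pairs of set and background for 7 of the 10 genes: Nrg1, Erbb4, Adam17, Adam10, Hbegf and Btc above 0 and Erbb3 below 0. Over all genes of the table this held for 21.3%, and over genes past the filter for 32%. Of the 8 tested genes 5 were above 0 and 3 below for the transgene over both backgrounds, with a median of 0.09, beside a median of -0.01 over all tested genes. The test of whether the transgene difference itself differed between backgrounds called none of the 8 by limma (0 at an unadjusted p under 0.05, and 0 called with the block). Of all tested genes it called 0.00798% with or without the block, and 1.11% had an unadjusted p under 0.05. For Erbb4 that difference was -0.12 log2 units with a 95% interval of -0.65 to 0.41, and for Erbb3 it was 0.04 with an interval of -0.47 to 0.56, so without the block differences of a size like the transgene difference itself lie within the intervals. With the block the 95% intervals were -0.34 to 0.09 for Erbb4 and -0.20 to 0.29 for Erbb3, and differences of that size lie outside them. That fit has no term for sex, which was not balanced over the genotypes. With terms for sex and set the difference was -0.21 (SE 0.19) for Erbb4 and -0.13 (SE 0.20) for Erbb3. The SEs with the block alone were 0.089 and 0.0998, so the narrower intervals do not settle whether the backgrounds differ.

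For Q215X/+ against WT, which asks what the mutation changes without the transgene, 0 of the 8 tested genes were called by limma, 0 had an unadjusted p under 0.05, and 0 were called with the block, in a comparison that called 0.00798% of tested genes with or without the block and left 2.04% at an unadjusted p under 0.05. The log2 differences of the 8 ran from -0.13 for Erbb2 to 0.15 for Adam17. Erbb4 was 4.16 and 3.23 FPKM in Q215X/+ nerve, against 3.74 and 3.02 FPKM in WT nerve, a log2 difference of 0.10 with a 95% interval of -0.28 to 0.47. For Erbb3 it was -0.03, with an interval of -0.39 to 0.33. Egfr, Adam17 and Hbegf were higher in both Q215X/+ libraries than in both WT libraries. Groups that did not overlap in this comparison made up 17.2% of all genes of the table, and sex differs between these groups.

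The order of levels, which FPKM allows since it is per gene length, changed around Erbb3. In WT nerve the means were 281 FPKM for Adam10, 41.4 for Erbb3, 33.8 for Adam17, 32.4 for Hbegf, 22.4 for Bace1, 19.8 for Erbb2, 8.95 for Egfr, 3.38 for Erbb4, 0.371 for Btc and 0.184 for Nrg1. Each gene's lowest WT library was above the highest WT library of the next gene, though Adam17 and Hbegf were parted by only 33.3 against 33.1 FPKM. In all 4 transgenic libraries Erbb3 lay below both Adam17 and Hbegf. It lay above both in 3 of the 4 other libraries, the exception being the Q215X/+ library of set 1, with 36.0 FPKM for Erbb3 and 40.3 FPKM for Adam17. Within HA-NRG1 type III/+ nerve Adam17 and Hbegf overlapped. Within Q215X/+ nerve Adam17 overlapped Erbb3 and also Hbegf, while Erbb3 lay above Hbegf in both libraries.

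Promoters are shown for the genes that were higher in all 4 transgenic libraries and have an entry in the RefSeq promoter table that could be printed here, which are Erbb4, Btc and Adam17. Of the 10 genes 6 had an entry. Each line gives the 250 bases before the RefSeq start on GRCm38.p6, read on the gene's strand, with capitals at a motif match.
Erbb4: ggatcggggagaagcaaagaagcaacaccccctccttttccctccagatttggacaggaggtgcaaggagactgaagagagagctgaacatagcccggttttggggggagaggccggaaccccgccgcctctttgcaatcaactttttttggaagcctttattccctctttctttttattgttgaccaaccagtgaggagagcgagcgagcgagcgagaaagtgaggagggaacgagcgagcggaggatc
Btc: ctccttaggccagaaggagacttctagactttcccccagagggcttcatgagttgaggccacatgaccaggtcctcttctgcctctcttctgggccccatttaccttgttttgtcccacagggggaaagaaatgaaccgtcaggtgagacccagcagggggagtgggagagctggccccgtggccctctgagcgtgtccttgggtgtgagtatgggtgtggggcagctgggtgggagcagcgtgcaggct
Adam17: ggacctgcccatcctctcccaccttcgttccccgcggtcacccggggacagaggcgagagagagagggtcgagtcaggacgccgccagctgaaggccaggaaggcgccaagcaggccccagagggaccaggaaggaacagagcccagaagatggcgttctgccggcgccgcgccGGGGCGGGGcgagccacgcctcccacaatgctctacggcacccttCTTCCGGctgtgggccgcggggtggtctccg
They lie at chr1:69108060-69108309 for Erbb4, chr5:91402995-91403244 for Btc and chr12:21373633-21373882 for Adam17, all on the minus strand. GC made up 54% of the Erbb4 window, 59.6% of the Btc window and 70.4% of the Adam17 window, against a median of 52.4% over 32851 promoters. The Erbb4 window held 12 CpG, the Btc window 4 and the Adam17 window 23, against a median of 6.

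The letters of 9 motifs were searched on both strands. The ETS string CCGGAAG occurs in 6.91% of promoters of this length, the AP-1 string TGAGTCA in 4.46% and the CRE string TGACGTCA in 1.55%. The SOX string ACAAAG occurs in 16.5%, the EGR string GCGGGGGCG in 2.57% and the TEAD string GGAATG in 12.6%. The E-box CACGTG occurs in 6.02%, the GC box GGGGCGGGG in 10.4% and the TATA box TATAAA in 12.4%. No 2 matches in the printed windows overlapped. The Erbb4 and Btc windows held none of these letter strings. The Adam17 window held GGGGCGGGG 76 bases and CCGGAAG, on the other strand, 31 bases before the start. A match is a description of the letters only.

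Other genes of the pathway were read from 4 lists with 72 genes. Of 8 other EGF family ligands 2 passed the filter, and 0 were called in any comparison by limma with or without the block. Tgfa, which encodes the EGFR ligand TGF-alpha, was the most abundant ligand gene besides Hbegf, at 27.7 to 32.7 FPKM in transgenic libraries and 28.5 to 34.5 FPKM in the others. By genotype it was at 34.2 and 34.5 FPKM in WT and 32.7 and 31.7 FPKM in HA-NRG1 type III/+ nerve. With the mutation it was lower, at 30.4 and 28.5 FPKM in Q215X/+ and 28.9 and 27.7 FPKM in transgenic mutant nerve, and was not called. Nrg4, which encodes an ERBB4 ligand, was at 0.771 to 1.54 FPKM in transgenic libraries and 0.520 to 1.70 FPKM in the others. Nrg3 and Areg were listed at 0 in all 8 libraries. Ereg was listed at 0 in the 4 libraries without the transgene and at 0.0114 to 0.0359 FPKM in the 4 with it. Values so near 0 may rest on very few reads, which FPKM does not show, and 6.87% of all genes of the table did not overlap in this way in either direction.

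Of 19 other sheddases, regulators and intramembrane proteases 18 were tested, and with the block 1 rose and 1 fell for the transgene over both backgrounds, where 7.1% of all tested genes were called in either direction. Adam19, a protease that in cell culture processes neuregulins, was at 14.2 and 15.7 FPKM in HA-NRG1 type III/+ nerve, against 13.4 and 10.5 FPKM in WT nerve. With mutation and transgene together, it was at 15.7 and 15.7 FPKM, against 11.3 and 9.84 FPKM in Q215X/+ nerve. The groups did not overlap, and the log2 difference was 0.42 (limma adjusted p = 0.0338 with the block and 0.124 without).

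Rhbdf2, which encodes the inactive rhomboid iRhom2 that carries ADAM17 to the cell surface, was at 4.92 and 6.16 FPKM in HA-NRG1 type III/+ nerve, against 9.34 and 9.12 FPKM in WT nerve. With the transgene on the mutant background it was at 6.11 and 6.34 FPKM, against 10.2 and 7.64 FPKM in Q215X/+ nerve. No overlap was seen between the groups, and the log2 difference was -0.55 (limma adjusted p = 0.0304 with the block, 0.0814 without and 0.0475 with terms for sex and set). The median over the 18 tested genes was 0.02, beside -0.01 over all tested genes.

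Of 18 ERBB inhibitors, scaffolds and co-receptors 16 were tested, and with the block 1 rose, beside the same 7.1% of all tested genes. This was Cd44, a hyaluronan receptor that binds ERBB receptors and their ligands. It stood at 8.65 and 5.56 FPKM in HA-NRG1 type III/+ nerve, against 7.01 and 3.88 FPKM in WT nerve. In nerve of transgenic mutants it was at 8.89 and 5.32 FPKM, against 5.43 and 4.33 FPKM in Q215X/+ nerve. The libraries overlapped and differed by set, and the log2 difference was 0.39 (limma adjusted p = 0.039 with the block and 0.672 without). The median over the 16 genes was -0.04.

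Of the 27 genes reported here that relay the signal, 26 were in the table and 25 were tested, and with the block 2 of these rose, beside 7.1% of all tested genes called. Prkca, which encodes protein kinase C alpha, was at 50.8 and 63.9 FPKM in HA-NRG1 type III/+ nerve, against 32.4 and 40.2 FPKM in WT nerve. In transgenic mutant nerve it was at 57.3 and 60.4 FPKM, against 36.2 and 45.6 FPKM in Q215X/+ nerve. There was no overlap of the groups, and the log2 difference was 0.58 (limma adjusted p = 0.0053 with the block, 0.104 without and 0.0337 with terms for sex and set).

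Gab2, an adaptor that links receptors to PI3 kinase and SHP2, ran from 7.26 to 8.27 FPKM in transgenic libraries and from 5.40 to 6.69 FPKM in the others. Its log2 difference was 0.26 (limma adjusted p = 0.0373 with the block and 0.25 without). The median over the 25 genes was -0.01, beside -0.01 over all tested genes, and 10 were above 0 and 15 below. Over the 4 lists together, 0 genes were called without the block. With terms for sex and set, Adam19, Cd44 and Gab2 were not called (limma adjusted p = 0.096, 0.13 and 0.131).

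**Figure D4:**
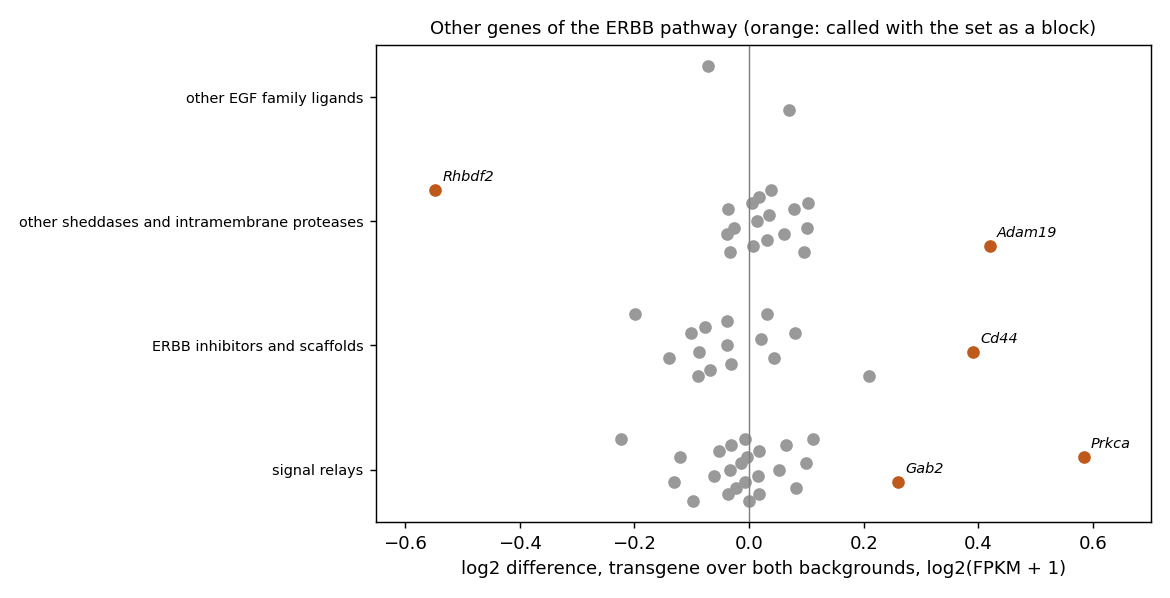
Log2 differences of FPKM + 1 for the transgene over both backgrounds (x axis) for each tested gene of the 4 lists (rows, with points spread in height only to part them), orange where limma called the gene with the set as a block. Prkca lay farthest above 0 at 0.58 and Rhbdf2 farthest below at -0.55.

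Among the other tested genes, those whose profile over the 8 libraries was nearest to Erbb4 were Cdh3, Sema3g and Mthfd1l, at root mean square distances of 0.0539, 0.0831 and 0.0873 log2 units after centring each gene on its own mean, where the median gene lay at 0.339. For Erbb3 the nearest were Thsd7a, Glul and Atp1b2, at 0.0346, 0.0401 and 0.0464, with a median of 0.243. The points of each profile share libraries and sets, and the likeness is a description.

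Sciatic nerve is a mixed tissue, and in bulk RNA fewer cells of a type and less RNA per cell cannot be told apart. Schwann cell markers were abundant in all libraries, with 8 of 8 past the filter and a summed level of 52773 to 71652 FPKM in transgenic libraries and 56825 to 77222 FPKM in the others. In 3 of 10 marker lists the summed level did not overlap between the 4 transgenic libraries and the 4 others, as with Erbb4 and Erbb3. Axon markers, 6 of 6 below 0 for the transgene, summed to 15.0 to 23.3 FPKM in transgenic libraries and 26.7 to 41.7 FPKM in the others. Fibroblast markers were above 0 in 5 of 5 over both backgrounds, but in only 3 of 5 for transgenic mutant against Q215X/+. They summed to 5132 to 5442 FPKM in transgenic libraries and 4337 to 4763 FPKM in the others. Red blood cell markers, 4 of 4 below 0, summed to 32.2 to 178 FPKM in transgenic libraries and 229 to 1279 FPKM in the others. No marker of these 3 lists was at 0 in any library.

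Macrophage markers, 5 of 5 above 0, summed to 103 to 121 FPKM in transgenic libraries and 78.9 to 108 FPKM in the others, with overlap. Skeletal muscle markers summed to 747 FPKM in the Q215X/+ library of set 1 and to 2.45 to 60.0 FPKM in the other 7 libraries, where Ckm was at 0 in at least 1 library. The part of these cell types in the differences of Erbb4, Erbb3, Adam17, Hbegf and Btc was not tested.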

How the data were processed

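Sciatic nerve RNA was selected for poly A and made into TruSeq libraries, per the labels' protocols. The authors deposited 1 table of FPKM values, per the file header, with 1 value per gene and library. TopHat2 2.0.9, Cufflinks 2.2.0 and mm10 are named in the submitters' processing notes, while nothing in the sources used here gives the annotation, the strand handling or a filter. Depth is unknown, since FPKM holds no counts, and counting intervals are not given. Total FPKM ran from 443733 to 530901 per library.

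Columns were joined to genotypes by name stem. The transgene's stem is abbreviated and was assigned to HA-NRG1 type III/+ since the other stems named the other genotypes. The endings 0 and 1 are not tied to a replicate number by any label. The set 1 minus set 0 differences correlated across genes in all 6 pairs of genotypes (0.118 to 0.304), so the sets were taken as pairs. This rests on the data, as no label states it.

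Values were analysed as log2(FPKM + 1) in limma 3.58.1 (R 4.3.3), with an eBayes trend, 4 group means over 8 libraries, a filter at a mean of 1 FPKM and Benjamini-Hochberg adjustment over 12530 genes. Log2 differences therefore understate changes of low genes. The comparison over both backgrounds is the mean of the transgene differences in WT and in Q215X/+. An exact permutation test of 2 against 2 cannot go below a two-sided p of 0.333, or of 0.0556 for 4 against 4 within backgrounds, and was not used. The fits were checked on simulated data, and that check is no support for any call given here. Alternatives were the set as a replicate block, a term for sex, no filter, a pseudocount of 0.1, median-of-ratios scaling, groups compared alone and leaving out each library. Joint changes of filter, pseudocount and block, and leaving out libraries with the block, were chosen after seeing the data.

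The 10 genes, the lists of other pathway genes and the cell type markers were chosen with earlier results of these data known. All 10 genes are given. Of each list, the genes called in any comparison with or without the block are named, or else the 2 with the largest absolute limma statistic, and Nrg3, Areg and Ereg were added for their values of 0. A gene of the signal relay list is not reported here and was left out of that list's counts and median after its values were seen. For Erbb3 and Erbb4 the 3 nearest genes are named. Sequences are from GENCODE M21 and RefSeq (Biopython 1.88), and figures were drawn with matplotlib 3.10.9.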

Additional observations from a re-analysis of the deposited data

How the results depend on the processing

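For the transgene over both backgrounds, 124 genes were called over all genes, and 890 with the set as a replicate block, 22 with a term for sex and 304 with terms for sex and the block, and 11 to 669 when 1 library was left out, with or without the block. For HA-NRG1 type III/+ against WT, 8 genes were called over all genes, and 265 with the set as a replicate block, 31 with no filter, 36 with no filter and the block, 32 with a pseudocount of 0.1, no filter and the block and 2 with the groups fitted alone, and 1 to 221 when 1 library was left out, with or without the block. For transgenic mutant against Q215X/+, 5 genes were called over all genes, and 216 with the set as a replicate block, 3 with no filter, 9 with a term for sex, 11 with terms for sex and the block, 2 with no filter and the block and 2 with a pseudocount of 0.1, no filter and the block, and 1 to 73 when 1 library was left out, with or without the block. For transgenic mutant against WT, 14 genes were called over all genes, and 299 with the set as a replicate block, 49 with no filter, 98 with terms for sex and the block, 25 with no filter and the block, 26 with a pseudocount of 0.1, no filter and the block and 4 with the groups fitted alone, and 4 to 241 when 1 library was left out, with or without the block. For Q215X/+ against WT, 1 gene was called over all genes, and 22 with no filter, 8 with a term for sex, 9 with terms for sex and the block, 14 with no filter and the block, 18 with a pseudocount of 0.1, no filter and the block and 7 with the groups fitted alone, and 1 to 20 when 1 library was left out, with or without the block. For the interaction, 1 gene was called over all genes, and 21 with no filter, 9 with a term for sex, 9 with terms for sex and the block, 19 with no filter and the block and 23 with a pseudocount of 0.1, no filter and the block, and 3 to 12 when 1 library was left out, with or without the block. Of the 10 genes, 8 were fitted with the filter and in all fits that left out a library, and all 10 only with no filter. Of the genes fitted, 0 were called for the transgene over both backgrounds in the fit without the block, 3 with the set as a replicate block, 1 with terms for sex and the block, 2 with no filter and the block and 2 with a pseudocount of 0.1, no filter and the block, and 0 to 3 when 1 library was left out. Of the genes fitted, 0 were called for HA-NRG1 type III/+ against WT in the fit without the block, 1 with the set as a replicate block, and 0 to 1 when 1 library was left out. Of the genes fitted, 0 were called for transgenic mutant against Q215X/+ in the fit without the block, 1 with the set as a replicate block, and 0 when any 1 library was left out. Of the genes fitted, 0 were called for transgenic mutant against WT in the fit without the block, 1 with the set as a replicate block and 1 with terms for sex and the block, and 0 to 1 when 1 library was left out. Sign changes were seen among log2 differences that were at most 0.18 in size in the fit without the block, none of them called there. With a term for sex, the log2 difference was 0.035 for Adam17 in the interaction, 0.0063 for Bace1 in transgenic mutant against Q215X/+, -0.051 for Egfr in transgenic mutant against Q215X/+, 0.18 for Erbb4 in the interaction, -0.11 for Erbb4 in Q215X/+ against WT, 0.21 for Hbegf in the interaction and -0.14 for Hbegf in Q215X/+ against WT. With terms for sex and the block, it was -0.015 for Adam10 in transgenic mutant against Q215X/+, 0.17 for Adam17 in the interaction, -0.048 for Adam17 in Q215X/+ against WT, -0.11 for Bace1 in the interaction, 0.13 for Bace1 in Q215X/+ against WT, -0.0022 for Egfr in transgenic mutant against Q215X/+, -0.13 for Erbb2 in the interaction, 0.072 for Erbb2 in Q215X/+ against WT, -0.13 for Erbb3 in the interaction, 0.087 for Erbb3 in Q215X/+ against WT, 0.22 for Hbegf in the interaction and -0.14 for Hbegf in Q215X/+ against WT. With 1 library left out, the range that crossed 0 for the transgene over both backgrounds was -0.13 to 0.00100 for Bace1. In transgenic mutant against Q215X/+ such ranges were -0.0044 to 0.13 for Adam10, -0.14 to 0.13 for Bace1, -0.0203 to 0.17 for Egfr and -0.24 to 0.054 for Erbb2. In transgenic mutant against WT it was -0.11 to 0.049 for Bace1. In Q215X/+ against WT such ranges were -0.011 to 0.087 for Adam10, -0.16 to 0.11 for Bace1, -0.0042 to 0.16 for Egfr, -0.28 to 0.015 for Erbb2, -0.19 to 0.13 for Erbb3 and -0.046 to 0.24 for Erbb4. In the interaction such ranges were -0.11 to 0.028 for Adam10, -0.012 to 0.26 for Bace1, -0.12 to 0.061 for Egfr, -0.11 to 0.20 for Erbb3 and -0.27 to 0.0202 for Erbb4. The cause of these changes was not tested. Median-of-ratios scaling changed no sign and no call of the 8 genes that passed the filter, and moved the median of all genes by under 0.01 log2 units. Without the block 2 libraries a group leave 4 residual degrees of freedom, with it 3, and with terms for sex and the block 2. A library left out leaves 1 group with a lone library that is assumed to vary like the others. The block changed no other call among the 10 genes than those given above for Erbb4, Erbb3, Adam17 and Btc.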
